A study of Homo sapiens with 6 samples.

Results

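Semaphorins are a family of secreted and membrane-bound guidance proteins, and plexins are their principal receptors. The semaphorin and plexin genes described here were 10 genes fixed by name: the class 3 semaphorins SEMA3A, SEMA3B, SEMA3C and SEMA3F, the class 4 semaphorins SEMA4B, SEMA4C and SEMA4D, and the plexins PLXNA1, PLXNB2 and PLXND1. They were chosen with earlier results of these data known. Their probes were found by gene symbol in the platform annotation, which named 11 probes for 9 of the 10 genes, among 24526 probes and 16922 named genes on the array. PLXNB2 had no probe named here.

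RNA came from PC3, an established cell line derived from a human prostate cancer metastasis that grows without androgen. Each of the 6 samples was hybridised to an Illumina HumanRef-8 v3 BeadChip. The control group was 3 samples of PC3 cells expressing green fluorescent protein (GFP), and the other group was 3 samples of PC3 cells expressing GRK3, a kinase that acts on ligand-bound G protein-coupled receptors and so desensitises them. Both groups are PC3 cells carrying a transgene, and the sources used here do not give the promoter of the transgene or say whether a group is a clone or a pool. The study asks which genes GRK3 regulates in these cells, but the comparison is between these particular cell populations.

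Class 3 semaphorins are secreted, usually signal through a complex of a neuropilin, which binds the ligand, and a plexin, which carries the signal into the cell, and are cut by furin-type proteases. Class 4 semaphorins are transmembrane proteins and bind B-type plexins, and in some cases plexin D1, without needing a neuropilin. The plexin cytoplasmic region passes the signal on to cell adhesion and the cytoskeleton, and in tumours individual semaphorins have been described both as promoting and as restraining growth, invasion and vessel formation.

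Of the 11 probes, 10 passed the detection filter (detection p-value under 0.05 on at least 3 of the 6 arrays) and were tested. In the GRK3 samples SEMA3C rose to 2.00 times its GFP level (95% interval 1.63 to 2.45), and the other 9 tested probes did not pass. Thus 1 of 10 member probes passed at a Benjamini-Hochberg adjusted p under 0.05 (limma), where 0.573% of all 14130 tested probes passed. Because the members were chosen with earlier results of these data known, setting these shares side by side is a description and not a test. The median difference of the 10 probes was 0.00 on the log2 scale, beside -0.01 over all tested probes. Of the 81 probes that passed among all tested probes, 53 were higher and 28 lower in GRK3. This split became 57 and 55 in the authors' deposited value table without further normalization.

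The arrays had mean signals of 1171 to 1387, and 56.2% to 58.6% of their probes were detected. The epithelial markers EPCAM, KRT8, KRT18 and CDH1 were detected on all 6 arrays and none passed the test. KLK3 and TMPRSS2, genes of luminal prostate cells that PC3 cells are known to hold low, were detected on 0 arrays. Of the leukocyte markers, PTPRC and CD3E were detected on 0 arrays, CD14 on 5 at 1 of its 2 probes and LYZ on all 6. Of the fibroblast markers, COL3A1 and DCN were detected on 0 arrays and COL1A1 and LUM on all 6. Of the endothelial markers, CDH5, VWF and TEK were detected on 0 arrays and PECAM1 on all 6 (log2 difference 0.21, limma adjusted p = 0.462). Of the Schwann cell and neuron markers, GAP43 was detected on 0 arrays and TUBB3 on all 6. None of the tested markers passed. The single probe of GRK3 was detected on 0 of the 6 arrays, so it does not check the labels. GFP replicate 3 and GRK3 replicate 1 deviated from their group means together, with a correlation of 0.51 across the 14130 probes, as did GFP replicate 1 and GRK3 replicate 3 with 0.43. These correlations are over probes of the same arrays and are a description.

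SEMA3C encodes a secreted class 3 semaphorin that binds neuropilins and, in the heart and vessels, signals through plexin D1. In prostate cancer cells it has been described as a ligand that activates receptor tyrosine kinases through plexin B1. RefSeq gives 2 transcription starts for SEMA3C, 3338 bases apart on the minus strand of chromosome 7, and their surroundings are shown because SEMA3C is the member that rose. Each window runs 5′ to 3′ from 250 bases before the start to 50 bases after it in GRCh38.p14, and capitals mark every match to GGGCGG or its reverse complement, the GC box.
SEMA3C upstream start, chr7:80922340-80922639: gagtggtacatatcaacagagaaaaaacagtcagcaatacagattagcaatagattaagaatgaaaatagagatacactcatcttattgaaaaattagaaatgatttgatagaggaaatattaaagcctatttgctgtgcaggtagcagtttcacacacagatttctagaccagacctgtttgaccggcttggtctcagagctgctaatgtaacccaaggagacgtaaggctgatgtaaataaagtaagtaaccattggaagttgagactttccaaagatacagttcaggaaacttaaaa
SEMA3C downstream start, chr7:80919002-80919301: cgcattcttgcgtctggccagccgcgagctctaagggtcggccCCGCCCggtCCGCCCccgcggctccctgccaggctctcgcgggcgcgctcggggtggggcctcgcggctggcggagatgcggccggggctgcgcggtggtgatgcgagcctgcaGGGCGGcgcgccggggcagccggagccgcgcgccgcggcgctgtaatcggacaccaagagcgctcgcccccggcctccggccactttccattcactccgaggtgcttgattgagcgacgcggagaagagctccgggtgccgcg
The downstream window is rich in CpG, with 46 CpG dinucleotides and 75.7% G or C, while the upstream window has 2 and 36%. Over all 35114 windows with no ambiguous base the median was 14 CpG dinucleotides and 58.7% G or C.

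The downstream SEMA3C window held 3 GC boxes, which begin 207, 198 and 93 bases before the start, and the upstream window held 0. At least 1 GC box was present in 45% of all windows. Neither window held the TATA box TATAAA (11.5% of all windows), the E-box CACGTG (7.26%), the AP-1 motif TGANTCA (7.71%) or TGACG, the core of the cyclic AMP response element (24.6%), on either strand. These motifs do not overlap in either window. Which of the starts is used in these cells was not measured, and a match to letters is not a measured site. Windows were found for 9 of the 10 members, 18 in all, SEMA3A having no entry. A GC box was in 13 of these 18, the E-box in 1, TGACG in 5, and TATAAA and TGANTCA in 0.

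SEMA3C was read by 1 probe, ILMN_1695475, annotated to NM_006379 and detected on all 6 arrays. Its signal as deposited, with background not subtracted, was 591, 611 and 689 on GFP arrays 1, 2 and 3, and 964, 1231 and 1246 on GRK3 arrays 1, 2 and 3. Every GRK3 array lay above every GFP array on this raw scale, and the ratio of the group means was 1.82. After background correction and quantile normalization the log2 values were 9.16, 9.03 and 9.16 in GFP and 9.85, 10.11 and 10.39 in GRK3. The groups did not overlap: the lowest GRK3 array was 0.69 above the highest GFP array, more than the whole range within either group, 0.13 in GFP and 0.54 in GRK3.

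The mean of SEMA3C was 9.12 ± 0.07 (SD, n = 3) in GFP and 10.12 ± 0.27 (SD, n = 3) in GRK3, and the difference was 1.00 ± 0.13 (SE; 95% interval 0.70 to 1.29). The limma test gave an adjusted p of 0.011 over all tested probes. SEMA3C ranked number 32 by increase and number 30 by unadjusted p among the 14130 probes. Its difference was between 0.86 and 1.13 when each array was left out in turn, and it passed in 3 of those 6 runs. The call ended when GFP replicate 1 was left out (limma adjusted p = 0.0564), and likewise for GFP replicate 2 (0.102) and GRK3 replicate 2 (0.073). With both GFP replicate 3 and GRK3 replicate 1 left out, a choice made after seeing the data, the difference was 1.15 and the limma adjusted p was 0.00333. GRK3 replicate 1 was the lowest GRK3 array for SEMA3C, so leaving it out raises the GRK3 mean. In RNA from whole cultures, a higher level in each cell and a larger share of cells with a high level cannot be told apart.

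**Figure D1:**
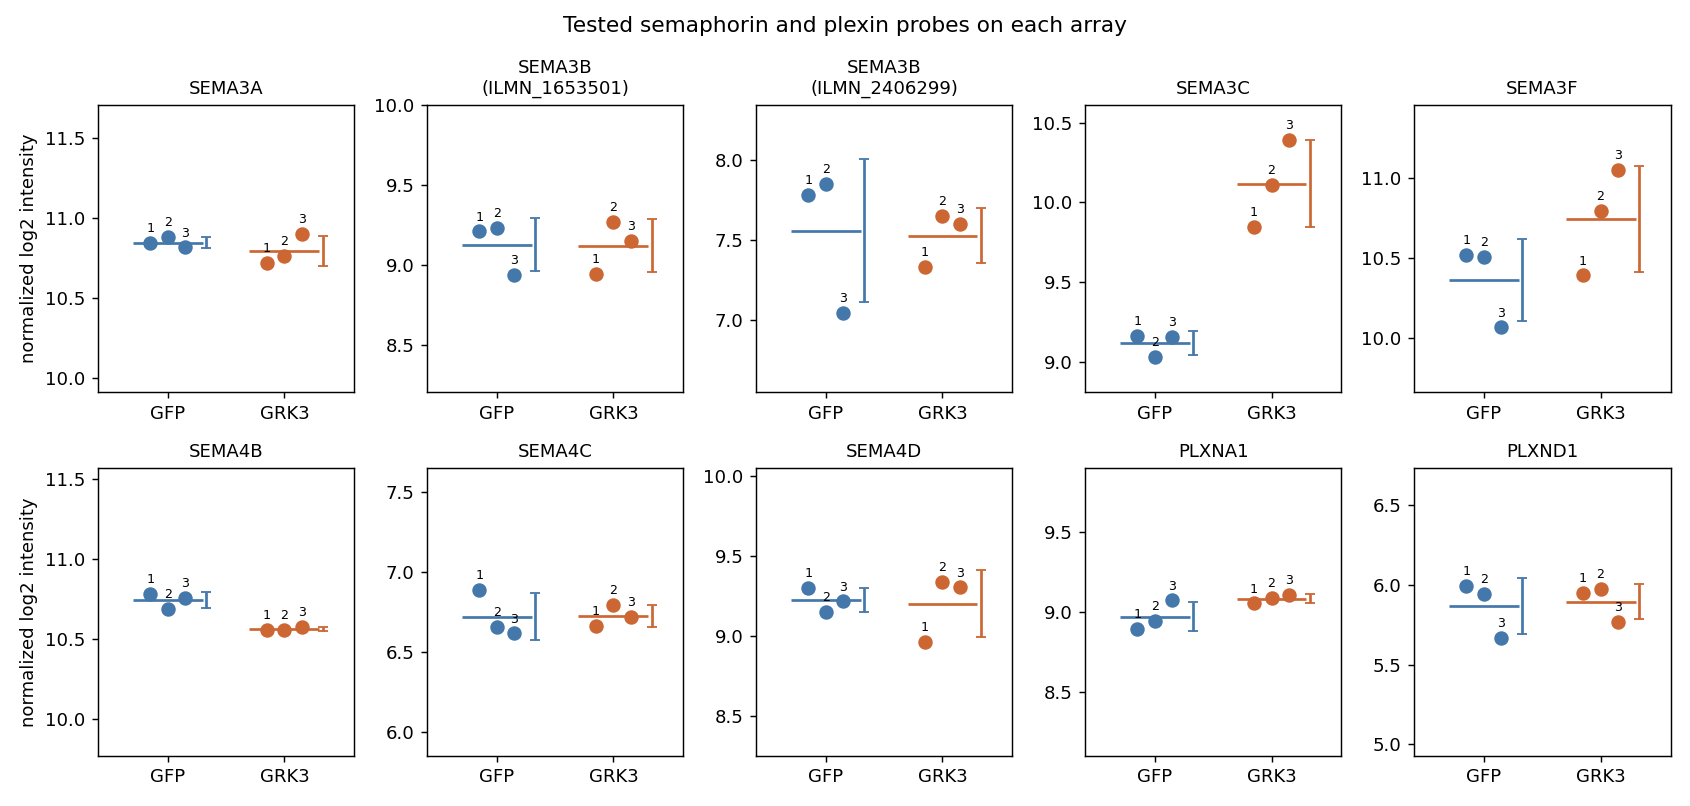
Normalized log2 intensity of the 10 tested member probes on each array, in 1 panel a probe, with every vertical axis spanning the same width. Points are arrays numbered by replicate, horizontal lines are group means and error bars are SD (n = 3); the 3 GRK3 arrays stand apart above the GFP arrays for SEMA3C, by at least 0.69, while in the other panels the groups overlap or, for SEMA4B, lie 0.11 apart.

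SEMA3F encodes a secreted class 3 ligand that acts mainly through neuropilin-2 and is described as restraining tumour growth and vessel formation. Its normalized log2 values were 10.52, 10.51 and 10.07 in GFP and 10.39, 10.79 and 11.05 in GRK3. The groups overlapped, because GRK3 replicate 1 lay below GFP replicates 1 and 2. The difference was 0.38 ± 0.18 (SE; 95% interval -0.01 to 0.78), which did not pass (limma adjusted p = 0.453). GFP replicate 3 and GRK3 replicate 1, the arrays that deviated together over all probes, were the lowest of their groups here. The difference of SEMA3F ran from 0.23 to 0.56 with each array left out, with limma adjusted p-values of 0.147 or higher.

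SEMA3A, the prototype repulsive guidance ligand, which acts through neuropilin-1 and A-type plexins, was bright on all 6 arrays and did not pass. Its values were 10.85, 10.88 and 10.82 in GFP and 10.72, 10.76 and 10.90 in GRK3, and the groups overlapped. The difference was -0.05 ± 0.09 (SE; limma adjusted p = 0.883), and its 95% interval, -0.25 to 0.15, corresponds to a ratio between 0.839 and 1.11.

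SEMA3B, which lies close to SEMA3F on chromosome 3 and is likewise described as a growth-restraining ligand, was read by 2 probes annotated to the same transcript, NM_001005914. The brighter, ILMN_1653501, had values of 9.21, 9.23 and 8.94 in GFP and 8.94, 9.27 and 9.15 in GRK3. The dimmer, ILMN_2406299, had 7.79, 7.85 and 7.04 in GFP and 7.33, 7.65 and 7.60 in GRK3. At both probes the groups overlapped and GFP replicate 3 and GRK3 replicate 1 were lowest in their groups. The differences were -0.01 ± 0.12 (SE) and -0.03 ± 0.20 (SE), with limma adjusted p-values of 0.992 and 0.974. The 95% interval was wider at the dimmer probe, -0.47 to 0.41, than at the brighter, -0.27 to 0.26.

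The pattern of these arrays was also counted at the member probes. GFP replicate 3 and GRK3 replicate 1 were both the lowest of their group at 5 of the 10 tested member probes (SEMA3A, both of SEMA3B, SEMA3F and SEMA4C) and both the highest at 0. Over all tested probes the shares were 18.5% and 18.6%. For SEMA3C, GRK3 replicate 1 was the lowest of its group but GFP replicate 2 was the lowest GFP array. GFP replicate 1 and GRK3 replicate 3, which also deviated together over all probes, were the highest of their groups for SEMA3C. In GFP the margin was narrow, 9.163 in replicate 1 beside 9.160 in replicate 3. That pair of arrays was not counted over the member probes. The part of this array pattern in the differences was not tested beyond leaving the arrays out.

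Among the class 4 ligands, SEMA4B, a transmembrane semaphorin, was lower in every GRK3 array at its detected probe without passing the test. ILMN_1672589 gave 10.78, 10.69 and 10.76 in GFP and 10.55, 10.56 and 10.57 in GRK3. The groups did not overlap, with 0.11 between the nearest arrays, and the GRK3 values lay within 0.02 of each other. The difference was -0.18 ± 0.08 (SE; 95% interval -0.37 to 0.01, limma adjusted p = 0.453). Groups that do not overlap were found at 2 of the 10 member probes, SEMA3C and this one, and at 16.4% of all tested probes. The other probe of SEMA4B, ILMN_1781814, was detected on 0 of the 6 arrays, with normalized values between 5.20 and 5.35, and was not tested.

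SEMA4C, a ligand of plexin B2, was dim but detected on all 6 arrays. Its values were 6.88, 6.66 and 6.61 in GFP and 6.66, 6.79 and 6.72 in GRK3, with overlapping groups and a difference of 0.01 ± 0.10 (SE; 95% interval -0.22 to 0.23, limma adjusted p = 0.992). SEMA4D, the ligand of plexin B1 that can be shed from the cell surface and is described as promoting vessel growth, had values of 9.30, 9.15 and 9.22 in GFP and 8.96, 9.34 and 9.31 in GRK3. GRK3 replicate 1 was the lowest of all 6 arrays for SEMA4D and the other GRK3 arrays were the highest. The difference was -0.02 ± 0.12 (SE; 95% interval -0.28 to 0.24, limma adjusted p = 0.971).

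Neither receptor tested among the members passed. PLXNA1, a plexin that pairs with neuropilins to receive class 3 ligands, had values of 8.90, 8.95 and 9.07 in GFP and 9.05, 9.09 and 9.11 in GRK3. The groups overlapped only between GFP replicate 3 and GRK3 replicate 1. The difference was 0.11 ± 0.09 (SE; 95% interval -0.09 to 0.31, limma adjusted p = 0.705). PLXND1, the plexin bound by SEMA3E and, with neuropilins, by SEMA3C, was at the edge of detection, detected on 4 of 6 arrays. Its values were 5.99, 5.94 and 5.67 in GFP and 5.95, 5.97 and 5.77 in GRK3, and the arrays that missed the detection threshold were replicate 3 of each group. The difference of PLXND1 was 0.03 ± 0.11 (SE; limma adjusted p = 0.962), measured so near background that a change in the RNA would be understated.

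**Figure D2:**
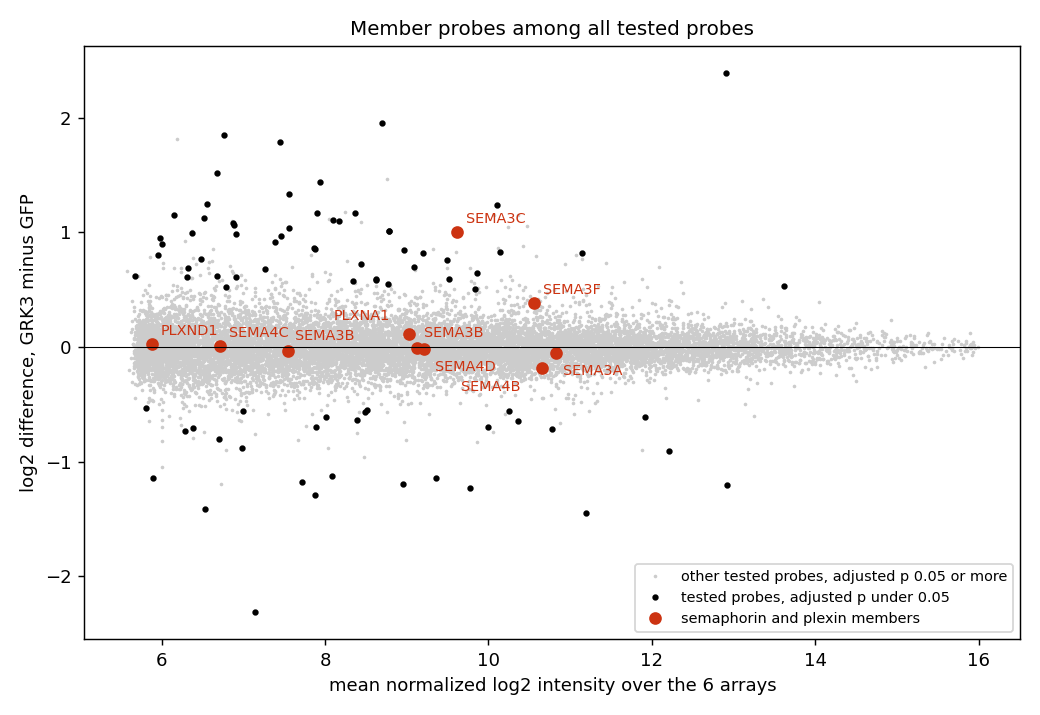
Log2 difference (GRK3 minus GFP) against mean normalized log2 intensity over the 6 arrays for the 14130 tested probes. Grey points did not pass and black points passed at an adjusted p under 0.05; of the 10 member probes in red, SEMA3C lies at 1.00 and the others lie between -0.18 and 0.38.

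Of the 10 tested member probes, 8 had a 95% interval of the fitted difference lying wholly within 0.5 of zero on the log2 scale, the others being SEMA3C and SEMA3F. For SEMA4C and PLXND1, near background, these intervals do not bound the change in RNA. At the dimmer SEMA3B probe the difference was -0.03 with all arrays and -0.29 without GFP replicate 3. The median SD within groups was 0.15 over the member probes and 0.13 over all tested probes.

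The rest of the pathway was read from 8 lists holding 72 other genes, of which 44 were tested, 22 had only probes that were not tested and 6 had no probe named here. A gene with several tested probes was counted by its brightest. Of the 44 genes, 0 passed over all probes in the limma test, 3 had an unadjusted p under 0.05 (SEMA7A, ERBB2 and GSK3B), and the groups did not overlap at 5. Over all tested probes 11.6% had an unadjusted p under 0.05 and 16.4% had groups that did not overlap. Those shares count probes, while each of the 44 genes was counted at 1 probe. Counted by probe, the unadjusted limma p was under 0.05 at 6 of 32 tested probes of the cytoplasmic partners. For the co-receptors and partner receptors it was 2 of 9, and for the class 5, 6 and 7 semaphorins 1 of 2. In the other lists it was 0. Dimmer probes of LIMK2, RAP1B and FYN had lower unadjusted p-values than these brightest probes of GSK3B and ERBB2, and none of them passed. The median difference of the 44 genes was -0.03.

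Among the other ligands, 6 of 13 genes were tested and 0 passed. SEMA3E, a class 3 ligand that binds plexin D1 directly, varied more within groups than between them. Its values were 10.36, 10.83 and 10.999 in GFP and 11.05, 10.58 and 10.17 in GRK3, with a difference of -0.13 ± 0.22 (SE; limma adjusted p = 0.886). GFP replicate 3 and GRK3 replicate 1 were the highest of their groups for SEMA3E, the opposite of SEMA3F and SEMA3B. SEMA7A, a membrane-anchored ligand of plexin C1 and of integrins, had values of 6.98, 7.30 and 7.12 in GFP and 7.001, 6.57 and 6.72 in GRK3. The groups overlapped by GFP replicate 1 and GRK3 replicate 1, and the difference of -0.37 ± 0.13 (SE) did not pass (limma adjusted p = 0.3). SEMA4A, an activating ligand of immune and epithelial cells, had a difference of 0.23 ± 0.10 (SE; limma adjusted p = 0.435), with groups that did not overlap. SEMA3D, SEMA4G, SEMA5A, SEMA5B and the 3 probes of SEMA6D were detected on 0 arrays.

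Of the other plexins, 4 of 6 genes were tested and 0 passed. PLXNB1, the receptor of SEMA4D, had values of 8.46, 8.72 and 8.73 in GFP and 8.71, 9.02 and 8.89 in GRK3, which overlap at GRK3 replicate 1. Its difference was 0.24 ± 0.11 (SE; limma adjusted p = 0.476). PLXNA2 and PLXNA3 differed by -0.03 ± 0.10 (SE) and -0.17 ± 0.13 (SE), with limma adjusted p-values of 0.953 and 0.691, PLXNA2 being detected on only 3 arrays. PLXNA4 and PLXNC1 were detected on 0 arrays.

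Of the co-receptors and partner receptors, 0 of 7 tested genes passed. NRP1, the neuropilin that binds SEMA3A and SEMA3C, was read by 2 probes. Neither passed, their 95% intervals overlapped, and no test compared them. The brighter, ILMN_1699574, differed by 0.00 ± 0.09 (SE; 95% interval -0.20 to 0.20, limma adjusted p = 0.996). The dimmer, ILMN_1742547, annotated to another transcript, differed by 0.33 ± 0.14 (SE; 95% interval 0.01 to 0.65, limma adjusted p = 0.411). Its values were 10.61, 10.56 and 10.10 in GFP and 10.60, 10.84 and 10.81 in GRK3, with GFP replicate 3 the lowest array. NRP2, the neuropilin of SEMA3F, was dim at its detected probe, with a difference of -0.15 ± 0.12 (SE; limma adjusted p = 0.713), and its other 2 probes were detected on 0 arrays. MET, the receptor of hepatocyte growth factor, which can associate with B-type plexins, differed by 0.08 ± 0.10 (SE; limma adjusted p = 0.831).

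ERBB2, a receptor tyrosine kinase that plexin B1 can also bind, had values of 11.02, 10.86 and 10.58 in GFP and 10.86, 11.36 and 11.55 in GRK3. Within its groups it followed the same order of arrays as SEMA3F in GRK3, and the groups overlapped at GRK3 replicate 1. The difference of ERBB2 was 0.44 ± 0.18 (SE; limma adjusted p = 0.377), and its other 2 probes were detected on 0 arrays. KDR, FLT1 and FLT4, the receptors of vascular endothelial growth factors, were detected on 0 arrays.

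**Figure D3:**
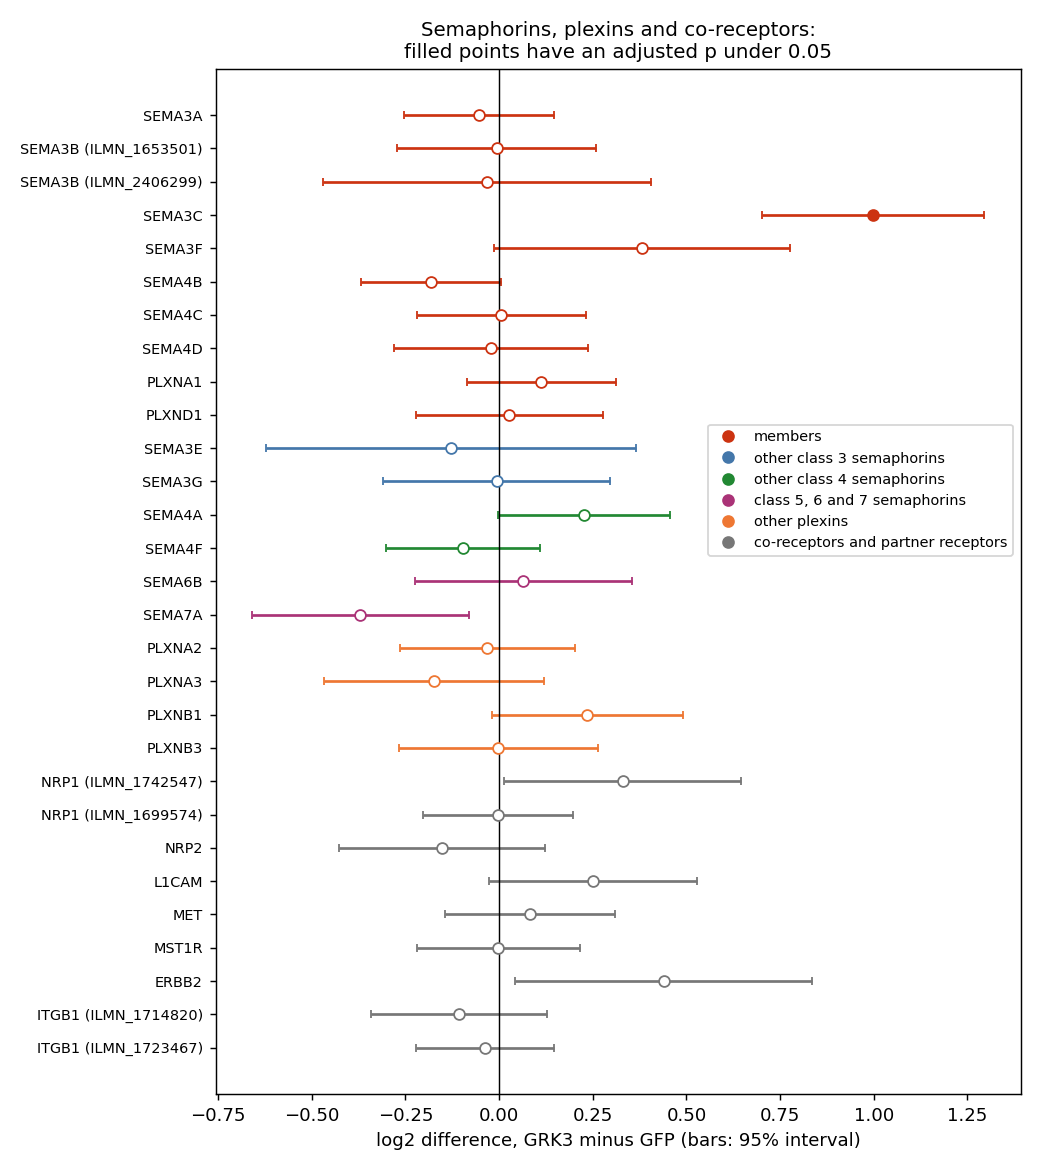
Log2 difference, GRK3 minus GFP, with 95% intervals for every tested probe of the members, the other semaphorins and plexins, and the co-receptors. Filled points passed at an adjusted p under 0.05; SEMA3C alone is filled, at 1.00 with an interval from 0.70 to 1.29.

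Downstream, 0 of 22 tested cytoplasmic partners of plexins passed, nor did any of 3 tested CRMP genes or of 2 tested convertases. GSK3B, a kinase that phosphorylates CRMP2 in the SEMA3A response, had the lowest p of the partners when each gene is counted by its brightest probe, with values of 11.62, 11.57 and 11.57 in GFP and 11.32, 11.37 and 11.42 in GRK3. The groups did not overlap, and the difference of -0.21 ± 0.08 (SE) did not pass (limma adjusted p = 0.362). DPYSL3, a CRMP of the same family, differed by -0.19 ± 0.09 (SE; limma adjusted p = 0.458), again without overlap. FURIN, which cuts class 3 semaphorins, differed by -0.10 ± 0.09 (SE; limma adjusted p = 0.753).

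Genes beside SEMA3C on chromosome 7 were looked at because SEMA3E and SEMA3A lie in the same stretch. Of the 5 protein-coding genes on each side of SEMA3C in the RefSeq order, 4 were tested, PHTF2, GNAI1, SEMA3E and SEMA3A, and 0 passed in the limma test. Their differences lay between -0.18 and 0.42. The highest was GNAI1, an inhibitory G protein alpha subunit, at 0.42 ± 0.12 (SE; limma adjusted p = 0.196). CD36 and HGF, the nearest neighbours of SEMA3C on either side, had probes detected on 0 arrays, apart from 1 of HGF detected on 2. Of the 10 nearest neighbours of SEMA3F, SEMA3B among them, 7 were tested and 0 passed, with differences between -0.12 and 0.05.

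**Figure D4:**
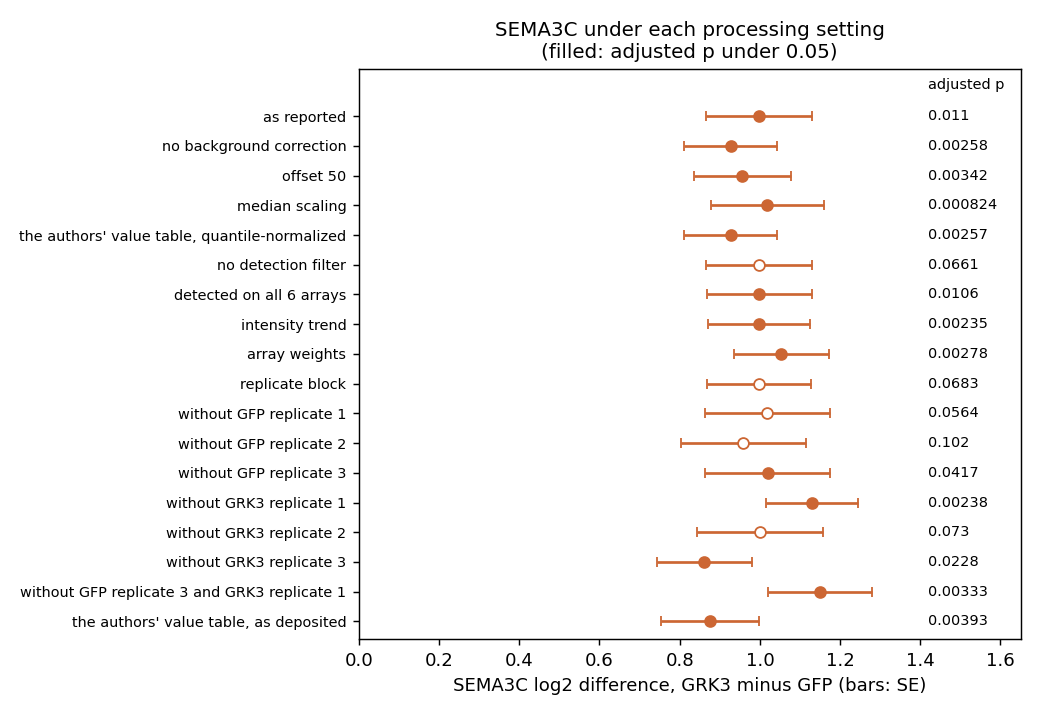
SEMA3C log2 difference, GRK3 minus GFP, with its SE under the reported setting and each alternative, and the adjusted p at the right. The difference stays between 0.86 and 1.15 in all of the alternatives, while open points mark the 5 in which the adjusted p was above 0.05.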

How the data were processed

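The authors' deposited table gives an average bead intensity per probe and array and, per the file headers, is not normalized. Beside each intensity the deposited columns hold a detection p-value, the rank of the signal against negative controls. The authors' value table, also intensity on a linear scale, equals it times 1 factor per array (0.931 to 1.10) and served as an alternative. The factors bring every array to the same mean, 1291.94, while the column medians lie between 131.6 and 140.7 and the values are not centred. The sources used here do not give the software behind either table.

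Background correction, quantile normalization and the log2 step were done by neqc (limma 3.58.1, R 4.3.3, offset 16), and 14130 probes detected on at least 3 of 6 arrays were compared by lmFit and eBayes, a two-sided moderated test without covariates, with Benjamini-Hochberg adjustment. The same code was tested on simulated data with independent noise, which did not hold the shared deviations of arrays described above. The labels do not say whether samples of a group are separate cultures, so p-values reflect only how far these samples spread, possibly for technical reasons, and their number limits the precision. Probe names come from the platform annotation, with 21813 of 21834 named probes found in the reference gene table. The members and the pathway lists were chosen with earlier results of these data known. Named are all member probes, a fixed set of partners, any list gene that passed and the gene with the lowest p in each list described. Chromosomal neighbours were looked up after the SEMA3C result was seen. Alternatives covered background correction, offset, scaling, the value table, the filter, the variance model, the replicate block and each array left out. The labels do not say whether same-numbered samples were paired. Deviations from group means of same-numbered samples correlated at -0.41, 0.18 and -0.41, which cannot decide how the samples were prepared.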

Additional observations from a re-analysis of the deposited data

How the results depend on the processing

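The count of 81 probes past the threshold was 134 without background correction, 122 with an offset of 50 and 152 with median scaling. It was 134 with the authors' value table quantile-normalized, 136 with an intensity trend and 239 with array weights. Without the detection filter, which adds probes to the fitted variance model as well as to the adjustment, the count was 23. It was between 17 and 173 with 1 array left out. With the replicate block it was 11, and the labels do not say whether same-numbered samples were paired. An alternative chosen after seeing the data left out GFP replicate 3 and GRK3 replicate 1 and gave 129. The member count of 1 was 0 without the detection filter, with the replicate block and without GFP replicate 1, GFP replicate 2 or GRK3 replicate 2, and 1 otherwise. SEMA3C differed by 1.00 in both of those first settings, with limma adjusted p-values of 0.0661 and 0.0683; with 1 array left out its difference ran from 0.86 to 1.13, and it was 1.15 without the 2 arrays together. Over its 17 alternatives the adjusted p ran from 0.000824 to 0.102. None of the other 9 tested probes passed in any alternative.

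Some of those 9 changed sign around 0, in 21 of the 171 member values recomputed. SEMA3B (ILMN_1653501) was 0.0073 with median scaling, 0.048 with array weights and from -0.10 to 0.082 with 1 array left out; its other probe was 0.032 with array weights and from -0.29 to 0.11. SEMA4C ran from -0.048 to 0.089 with 1 array left out and was -0.015 without the 2 arrays above and -0.011 with the authors' value table as deposited, also added later. SEMA4D was 0.053 with array weights, 0.093 without those 2 arrays and from -0.091 to 0.097 with 1 left out. PLXND1 ran from -0.072 to 0.092 and was -0.098 without those 2 arrays. The cause was not tested. Signal near background limits SEMA4C, PLXND1 and the undetected SEMA4B probe.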

Other observations

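In the cytoplasmic list, probes of FYN, LIMK2 and RAP1B had values not described above; these genes were chosen after their values were seen. FYN, a Src-family kinase that acts downstream of SEMA3A and plexin A receptors, was tested at 4 probes, which differed by -0.20, -0.26, -0.30 and -0.32 on the log2 scale, with limma adjusted p-values from 0.314 to 0.49, so none passed. The 4 probes read the same RNA and are not replicates. LIMK2, a kinase that phosphorylates cofilin, differed by -0.52 ± 0.14 (SE, limma adjusted p = 0.166) at ILMN_1687960, by -0.21 at ILMN_2367671 and by -0.18 at ILMN_1660624. ILMN_1687960 was dim, with means of 6.79 in GFP and 6.27 in GRK3, near background as SEMA4C was. Another LIMK2 probe, ILMN_2270443, was detected on 0 arrays. RAP1B, a small GTPase on which plexin GAP domains act, differed by 0.35 ± 0.10 (SE; limma adjusted p = 0.186) at its dimmer probe and by 0.09 at its brighter.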
